A study of Azumapecten farreri with 9 samples.

Results

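The 7 genes described here, all but MNS1, code for proteins that in other animals pair, cut and exchange chromosomes during meiosis. They were found by gene ID in the expression table of the series. There, 3 are described as synaptonemal complex proteins (SYCP1, SYCP3 and the central element protein SYCE2), and SPO11 and DMC1 as meiotic recombination proteins. MEIOB is described as a meiosis-specific protein with an OB domain, and MNS1 as meiosis-specific nuclear structural protein 1. They are 7 of 21617 genes, and all 7 passed the expression filter that left 11678 tested genes. The short symbols are used here for the table's descriptions, since the table holds no symbols. They were chosen by their differences between the 3 groups in this same table, so their levels and differences are given as a description without a test.

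The libraries came from hemocytes, the circulating immune cells of molluscs, of the Zhikong scallop (Azumapecten farreri), a bivalve. Messenger RNA was sequenced in 9 poly(A) libraries, 3 in each of 3 groups. The libraries titled LPS_T carry a group label for normal exosomes, which are small membrane vesicles that cells release. The libraries titled NOR_T carry a label for exosomes from stimulation with LPS (bacterial lipopolysaccharide). Those titled PBS came from scallops injected with phosphate-buffered saline, and all 3 groups were injected. The titles and the labels of the 6 exosome libraries therefore contradict each other, so the groups are named by title and no difference is assigned to LPS stimulation. The age and strain of the scallops, the exosome dose, the source of the exosomes and the time of sampling are not stated in the labels. Separate animals or pools are not mentioned for the libraries, so p-values set group differences only against the spread between libraries of a group. That spread may be technical.

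Meiosis reduces the chromosome set when eggs and sperm form. In the animals where it has been studied, SPO11 breaks the DNA, DMC1 and its helpers repair the breaks against the partner chromosome, and the synaptonemal complex, a protein zipper, holds the partners together until exchange is complete. Apart from MNS1, which in mouse is also needed for motile cilia, these genes are known as germline genes, and hemocytes are not germ cells. Levels below are given in CPM (counts scaled to the library total, with TMM correction between libraries) unless FPKM (fragments scaled by depth and by gene length) is named. Differences are fitted log2 values with an approximate standard error (SE), and means carry the SD of 3 libraries (n = 3).

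The depth was 19894628 to 45831950 estimated counts per library, equal to about 5320000 to 12300000 sequenced fragments, because 1 fragment was worth about 3.63 to 3.78 counts. PBS 1 was the shallowest library and stood apart: 2 genes of scaffold38697 took up 17.8% of its counts, but only 0.0318% to 0.0979% elsewhere. For the genes and lists that PBS 1 moved most, values without it are also given. A hemocyte marker list of 72 genes, led by Filamin-A, an actin crosslinker, summed to 6031 to 6369 CPM in LPS_T, 6457 to 6825 CPM in NOR_T and 6805 to 7237 CPM in PBS. Filamin-A made up 38.3% of that sum. Without it the sums were 3477 to 3554 CPM in LPS_T, 3883 to 4123 CPM in NOR_T and 4537 to 4931 CPM in PBS, and the groups did not overlap.

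All 7 genes had reads in all 9 libraries, and in each of them every LPS_T library lay above every NOR_T library. The summed level of the 7 genes was 78.7, 77.3 and 83.4 CPM in LPS_T, 29.7, 30.2 and 34.5 CPM in NOR_T, and 43.5, 58.8 and 49.7 CPM in PBS. The 3 groups did not overlap in this sum. It averaged 79.8 ± 3.19 CPM in LPS_T, 31.4 ± 2.64 CPM in NOR_T and 50.7 ± 7.68 CPM in PBS. The ranges lay apart with LPS_T above NOR_T in 7 of 7 genes (20.7% of all tested genes did so), with LPS_T above PBS in 5 of 7 (24.7% of tested genes) and with NOR_T below PBS in 4 of 7 (19.6% of tested genes). Since these contrasts were among the values known when the genes were chosen, nothing is read from these shares. The median log2 difference of the 7 genes was 0.59 for LPS_T against PBS, -0.91 for NOR_T against PBS and 1.36 for LPS_T against NOR_T, where the medians of all tested genes were 0.03, 0 and 0. The 3 contrasts share their libraries and are not separate evidence. In RNA from whole cell samples, fewer cells of a type and less RNA per cell cannot be told apart.

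**Figure D1:**
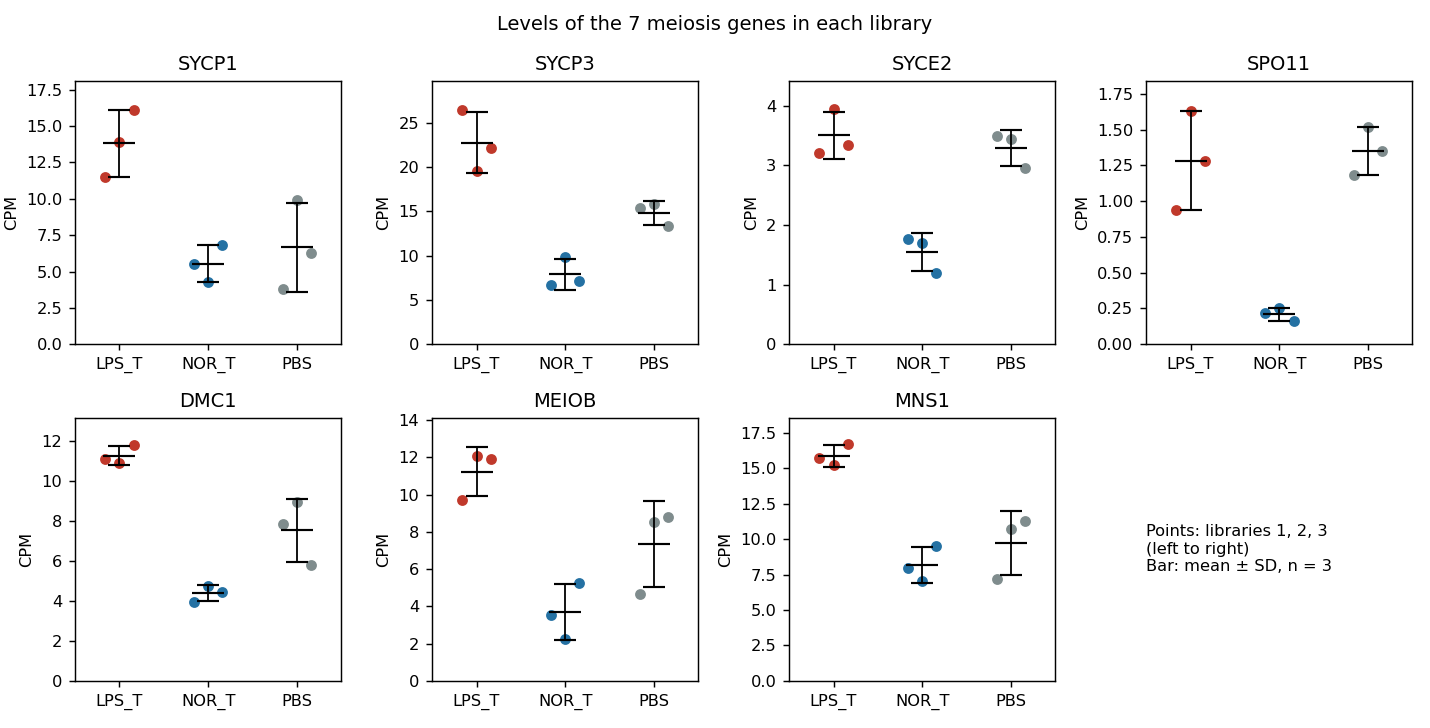
Level of each of the 7 meiosis genes in CPM (vertical axis, from 0) in every library, with the groups LPS_T, NOR_T and PBS on the horizontal axis. Points are libraries 1, 2 and 3 from left to right, and bars are the mean ± SD (n = 3). All 7 genes have their LPS_T points above their NOR_T points, while SYCE2 and SPO11 have LPS_T points among the PBS points.

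SYCP3 builds the lateral elements, the protein axes along each chromosome. The gene (evm.TU.scaffold12957.16) lies at positions 180796 to 185727 of scaffold12957 on the plus strand. It had the highest level of the 7 genes per length, with 31.3 ± 5.02 FPKM in LPS_T, 10.6 ± 2.09 FPKM in NOR_T and 18.1 ± 3.6 FPKM in PBS. Its mean FPKM over all libraries was above that of 89.3% of all genes in the table. By library it stood at 26.5, 19.6 and 22.2 CPM in LPS_T, at 6.64, 9.88 and 7.13 CPM in NOR_T, and at 15.4, 15.8 and 13.3 CPM in PBS. The 3 groups did not overlap, with LPS_T highest and NOR_T lowest. The fitted log2 differences were 0.62 (SE 0.16) for LPS_T against PBS, -0.91 (SE 0.17) for NOR_T against PBS and 1.53 (SE 0.17) for LPS_T against NOR_T.

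SYCP1 forms the transverse filaments, the teeth of the zipper. The gene (evm.TU.scaffold20223.8) spans positions 166814 to 188786 of scaffold20223, plus strand. It had 11.5, 13.9 and 16.1 CPM in LPS_T, 5.54, 4.27 and 6.81 CPM in NOR_T, and 3.8, 9.92 and 6.24 CPM in PBS. LPS_T lay above both other groups, and the NOR_T values fell inside the PBS range. LPS_T differed from PBS by 1.02 (SE 0.27) on the log2 scale, NOR_T from PBS by -0.29 (SE 0.27) and LPS_T from NOR_T by 1.32 (SE 0.27). The lowest value of all 9 libraries was that of PBS 1. Without PBS 1 the log2 difference was 0.75 for LPS_T against PBS and -0.54 for NOR_T against PBS, and without PBS 2 that of NOR_T against PBS was 0.1, so SYCP1 has no stable direction between NOR_T and PBS.

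SYCE2 is a component of the central element, where the filaments from both sides meet. Its gene (evm.TU.scaffold25917.12) covers positions 218802 to 222371 of scaffold25917 on the plus strand. The libraries held 3.21, 3.95 and 3.35 CPM in LPS_T, 1.77, 1.69 and 1.19 CPM in NOR_T, and 3.49, 3.44 and 2.95 CPM in PBS. LPS_T and PBS overlapped, and all NOR_T values lay below both. The log2 difference was 0.09 (SE 0.28) for LPS_T against PBS, -1.08 (SE 0.29) for NOR_T against PBS and 1.17 (SE 0.28) for LPS_T against NOR_T.

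The 3 synaptonemal complex genes were thus lowest in NOR_T and highest in LPS_T by their group means, but SYCE2 overlapped between LPS_T and PBS. Per length, SYCP3 exceeded SYCP1 in every library. The ratio of their FPKM was 10.8, 6.59 and 6.47 in LPS_T, 5.62, 10.9 and 4.93 in NOR_T, and 19.0, 7.47 and 9.98 in PBS. These ratios overlapped between the 3 groups, and the highest came from PBS 1, where SYCP1 was low.

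SPO11 makes the DNA breaks that start meiotic recombination. The table describes the gene (evm.TU.scaffold64279.8, positions 127565 to 136588 of scaffold64279, minus strand) as partial, so the gene model may be incomplete. It was the lowest of the 7 genes, with 1.16 ± 0.31 FPKM in LPS_T, 0.171 ± 0.0312 FPKM in NOR_T and 1.11 ± 0.333 FPKM in PBS. It passed the filter through 4 libraries, none of them NOR_T. The levels were 0.938, 1.63 and 1.28 CPM in LPS_T, 0.215, 0.251 and 0.162 CPM in NOR_T, and 1.18, 1.52 and 1.35 CPM in PBS. LPS_T and PBS overlapped, and NOR_T lay far below both. These levels rest on few fragments: about 11, 18 and 15 in LPS_T, 2.4, 2.2 and 1.6 in NOR_T, and 5.1, 17 and 17 in PBS.

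Summed over the libraries of a group, SPO11 had about 44 fragments in LPS_T, 6 in NOR_T and 39 in PBS. Scaled for depth, the ratio of LPS_T to NOR_T was 6.4, that of NOR_T to PBS was 0.144 and that of LPS_T to PBS was 0.92. The fitted log2 difference of SPO11 was -0.08 (SE 0.48) for LPS_T against PBS, -2.68 (SE 0.55) for NOR_T against PBS and 2.6 (SE 0.54) for LPS_T against NOR_T. On the log2(FPKM + 1) scale, which understates the change of low genes, the difference of NOR_T against PBS was -0.84. Between LPS_T and PBS the sign varied with the processing, with values between -0.28 and 0.11, and no direction is given.

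DMC1 is the recombinase that pairs a broken strand with the partner chromosome. Its gene (evm.TU.scaffold60659.8) lies at positions 181740 to 191150 of scaffold60659, plus strand. It had 11.1, 10.9 and 11.8 CPM in LPS_T, 3.96, 4.77 and 4.43 CPM in NOR_T, and 7.85, 8.94 and 5.79 CPM in PBS. The 3 groups did not overlap, as for SYCP3, and no other of the 7 genes had LPS_T above and NOR_T below PBS without overlap; 2.89% of all tested genes did. DMC1 also had the smallest spread within both exosome groups, with a coefficient of variation of 4.45% in LPS_T and 9.2% in NOR_T, against 21.2% in PBS. LPS_T differed from PBS by 0.59 (SE 0.18) on the log2 scale, NOR_T from PBS by -0.78 (SE 0.19) and LPS_T from NOR_T by 1.36 (SE 0.19). DMC1 shares 1 base with Long-chain-fatty-acid--CoA ligase 1 (positions 191150 to 207287), which runs towards it on the minus strand. The libraries do not mark strand, so reads from overlapping ends cannot be told apart. The ligase rose in LPS_T against PBS by 0.88 on the log2 scale (Benjamini-Hochberg adjusted p by edgeR = 0.00414) and lay at -0.39 in NOR_T against PBS (adjusted p = 0.213 in the same test). In LPS_T against NOR_T the ligase rose by 1.27 (adjusted p = 0.000326 in the same test), near the 1.36 of DMC1. A part of shared reads in this was not tested.

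MEIOB binds single-stranded DNA at the breaks and, in mouse, works as a pair with SPATA22. The gene (evm.TU.scaffold16535.85) lies at positions 2064942 to 2069717 of scaffold16535, minus strand. The values were 9.71, 12.1 and 11.9 CPM in LPS_T, 3.56, 2.26 and 5.24 CPM in NOR_T, and 4.67, 8.53 and 8.79 CPM in PBS. LPS_T lay above both other groups, and NOR_T overlapped PBS through PBS 1 alone. The log2 difference was 0.59 (SE 0.27) for LPS_T against PBS, -1.01 (SE 0.28) for NOR_T against PBS and 1.6 (SE 0.28) for LPS_T against NOR_T. Without PBS 1, the difference of LPS_T against PBS was 0.35 and that of NOR_T against PBS was -1.22. MEIOB had the widest spread in NOR_T of the 7 genes, a coefficient of variation of 40.5%.

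MNS1 carries meiosis in its name, but in mouse it is needed for the sperm tail and for motile cilia, and the table's own terms for the gene include the motile cilium. The gene (evm.TU.scaffold21407.15) spans positions 284684 to 295276 of scaffold21407, plus strand. It had 15.7, 15.2 and 16.7 CPM in LPS_T, 7.98, 7.03 and 9.51 CPM in NOR_T, and 7.16, 10.7 and 11.3 CPM in PBS. LPS_T lay above both other groups, and NOR_T overlapped PBS. The log2 differences were 0.69 (SE 0.17) for LPS_T against PBS, -0.27 (SE 0.17) for NOR_T against PBS and 0.96 (SE 0.17) for LPS_T against NOR_T, the last being the smallest of the 7. Without PBS 1 they were 0.51 for LPS_T against PBS and -0.42 for NOR_T against PBS.

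Whether the size of the gap between the exosome groups differed from gene to gene was not tested. The mean CPM in NOR_T was 16.3% of that in LPS_T for SPO11, 32.8% for MEIOB, 34.7% for SYCP3, 38.9% for DMC1, 40% for SYCP1, 44.3% for SYCE2 and 51.4% for MNS1. The SPO11 value rests on about 6 fragments in NOR_T. The fitted log2 differences ran from 1.17 (SE 0.28) for SYCE2 to 1.6 (SE 0.28) for MEIOB, with SYCP1, DMC1 and SYCP3 between. No order is read among these genes. The libraries of a group did not move the 7 genes in the same way. NOR_T 2 held the lowest NOR_T value of MEIOB, SYCP1 and MNS1 and the highest of SYCP3, DMC1 and SPO11. PBS 1 held the lowest PBS value of SYCP1, MEIOB, MNS1 and SPO11, and the highest of SYCE2.

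In mean level per length over all libraries, SYCP3 stood above DMC1 (6.76 FPKM), MNS1 (5.99 FPKM), MEIOB (5.04 FPKM), SYCE2 (4.71 FPKM), SYCP1 (2.49 FPKM) and SPO11 (0.811 FPKM). The same order held among the group means of LPS_T, where MNS1 (8.7 ± 0.65 FPKM) and MEIOB (7.83 ± 0.972 FPKM) did not differ beyond their spread. In NOR_T MNS1 (4.39 ± 0.706 FPKM) came before DMC1 (3.91 ± 0.253 FPKM), and SYCE2 (2.69 ± 0.581 FPKM) and MEIOB (2.53 ± 1.03 FPKM) were within their spread of each other. The middle genes were not separable in PBS, where DMC1 had 6.11 ± 1.79 FPKM, SYCE2 5.21 ± 0.943 FPKM, MNS1 4.89 ± 1.91 FPKM and MEIOB 4.76 ± 2.18 FPKM. FPKM was low in PBS 1 beside CPM with TMM: SYCP3 had 14.6 FPKM in PBS 1 and 21.8 FPKM in PBS 2, at 15.4 and 15.8 CPM. FPKM has no TMM correction for the 2 genes that took up counts of PBS 1. Whether they account for all of the lower FPKM there was not tested.

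The 7 genes lie on 7 different scaffolds, 5 on the plus strand. The table gives Gene Ontology terms for 6 of them, and these name meiosis or sperm in all 6. Of the 14 nearest tested neighbours, 1 on each side of each gene, 2 rose and 5 fell in LPS_T against PBS (17.9% and 15.2% of all tested genes), and 1 rose and 3 fell in NOR_T against PBS (11.4% and 13.5% of tested genes). SYCE2 lies 3189 bases from vitellogenin, the egg yolk precursor, and 260 bases from a wntless homolog on the other side. Vitellogenin averaged 133.2 ± 8.97 CPM in LPS_T, 63.1 ± 8.54 CPM in NOR_T and 36.0 ± 5.02 CPM in PBS. It rose in both exosome groups, by 1.9 on the log2 scale in LPS_T against PBS (Benjamini-Hochberg adjusted p by edgeR = 2.74e-09) and by 0.82 in NOR_T against PBS (adjusted p = 5.1e-05 in the same test), where SYCE2 had differences of 0.09 and -1.08. The neighbour of MEIOB, the RNA-binding protein GRP2A-like, fell in both, with log2 differences of -1.69 in LPS_T against PBS and -1.65 in NOR_T against PBS.

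Beyond the 7 genes, 18 others matched a list of meiotic chromosome and recombination genes by description, and 16 of these passed the filter. In LPS_T against PBS 7 of the 16 rose and 1 fell, by edgeR's quasi-likelihood test at a Benjamini-Hochberg adjusted p of 0.05 over all tested genes, where 17.9% of all tested genes rose and 15.2% fell. In NOR_T against PBS 2 rose and 4 fell (11.4% and 13.5% of tested genes). In LPS_T against NOR_T 6 rose and 1 fell (12.6% and 8.89% of tested genes). The median log2 difference of the 16 was 0.59 for LPS_T against PBS, -0.07 for NOR_T against PBS and 0.54 for LPS_T against NOR_T. Without LPS_T 3 the number of calls was 5 in place of 8 for LPS_T against PBS and 4 in place of 7 for LPS_T against NOR_T. Without PBS 1 there were 7 higher and 2 lower for LPS_T against PBS, and 2 higher and 5 lower for NOR_T against PBS. The counts include HFM1 and 1 PRDM9-like gene, which reached an FPKM of 1 only in the group where they were highest and passed the filter through it, so nothing is read from their calls.

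HORMAD1, which coats chromosome axes before they are zipped, had 22, 24.4 and 24.6 CPM in LPS_T, 7.69, 6.81 and 8.72 CPM in NOR_T, and 21.5, 16.7 and 12 CPM in PBS. All NOR_T values lay below both other groups. HORMAD1 fell in NOR_T against PBS by 1.1 on the log2 scale (Benjamini-Hochberg adjusted p by edgeR = 0.000325) and rose in LPS_T against PBS by 0.51 (adjusted p = 0.0315 in the same test). The second call was lost without LPS_T 2, LPS_T 3, PBS 2 or PBS 3, with adjusted p values between 0.0676 and 0.145 by the same test.

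MEIG1 was named for meiosis, and in mouse it serves the shaping of sperm after meiosis. It had 34.8, 40.3 and 35.3 CPM in LPS_T, 10.1, 9.44 and 6.13 CPM in NOR_T, and 26.0, 25.1 and 18.5 CPM in PBS. The 3 groups did not overlap. MEIG1 rose in LPS_T against PBS by 0.67 (Benjamini-Hochberg adjusted p by edgeR = 0.00543) and fell in NOR_T against PBS by 1.43 on the log2 scale (adjusted p = 2.09e-05 in the same test).

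The list held 2 genes described as PRDM9-like, after the enzyme that marks recombination hotspots in mouse and human. The copy on scaffold40169 had 6.85, 5.6 and 7.26 CPM in LPS_T, 1.62, 1.0 and 1.76 CPM in NOR_T, and 3.86, 4.24 and 4.66 CPM in PBS, and it fell in NOR_T against PBS by 1.54 on the log2 scale. The copy on scaffold63423 had 5.53, 5.65 and 7.15 CPM in LPS_T, 1.86, 2.16 and 2.51 CPM in NOR_T, and 1.56, 2.34 and 1.86 CPM in PBS, a log2 difference of 1.65 in LPS_T against PBS. The second copy reached an FPKM of 1 in the LPS_T libraries alone and passed the filter through them. NOR_T and PBS overlapped in the second copy and did not in the first.

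SPATA22, the partner of MEIOB in mouse, fell in both exosome groups. It had 1.88, 3.95 and 3.3 CPM in LPS_T, 2.41, 2.04 and 1.92 CPM in NOR_T, and 6.97, 6.29 and 6.41 CPM in PBS. The log2 difference was -1.11 (SE 0.27) in LPS_T against PBS and -1.62 (SE 0.28) in NOR_T against PBS, with adjusted p values of 0.00531 and 0.000499 by edgeR's quasi-likelihood test with Benjamini-Hochberg adjustment. MEIOB had differences of 0.59 and -1.01 in the same contrasts, so the pair shared a sign in NOR_T and not in LPS_T.

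HFM1, a helicase needed for crossovers in mouse, was highest in NOR_T, where the 7 genes were lowest by their group means. It stood at 4.6, 4.21 and 2.84 CPM in LPS_T, 11, 11 and 14.7 CPM in NOR_T, and 0.249, 1.59 and 1.07 CPM in PBS. The 3 groups did not overlap. The log2 difference from PBS was 1.86 (SE 0.36) in LPS_T and 3.51 (SE 0.36) in NOR_T. HFM1 reached an FPKM of 1 in the NOR_T libraries alone and passed the filter through them. Without PBS 1 the differences were 1.52 and 3.2.

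MSH5, which with MSH4 stabilises crossover intermediates, had 7.48, 9.41 and 9.72 CPM in LPS_T, 4.18, 4.08 and 5.18 CPM in NOR_T, and 2.12, 6.5 and 4.53 CPM in PBS. It rose in LPS_T against PBS by 0.97 (Benjamini-Hochberg adjusted p by edgeR = 0.0155), a call lost without LPS_T 3 (adjusted p = 0.0552) and by limma on log2(FPKM + 0.1) (adjusted p = 0.0505), and lay at -0.01 in NOR_T against PBS. Without PBS 1 these differences were 0.66 and -0.29. Its rise in LPS_T against NOR_T, by 0.98, was lost without LPS_T 2, LPS_T 3, NOR_T 1 or NOR_T 2 (edgeR adjusted p between 0.0641 and 0.0752), and by limma on log2(FPKM + 1) and log2(FPKM + 0.1) (adjusted p = 0.0878 and 0.195). MSH4 was too low for the filter, with 3.54, 3.26 and 1.86 CPM in LPS_T, 0.0955, 0 and 1.51 CPM in NOR_T, and 0, 0.409 and 0.599 CPM in PBS. M1AP was also below the filter, with 1.64 ± 0.53 CPM in LPS_T, 0.647 ± 0.562 CPM in NOR_T and 1.03 ± 0.262 CPM in PBS.

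TEX11, which promotes crossovers in mouse, rose in LPS_T against PBS by 0.96 (SE 0.16) and had a difference of 0.4 in NOR_T against PBS. Its rise in LPS_T against NOR_T, by 0.56, was lost without LPS_T 3 or NOR_T 3 (edgeR adjusted p = 0.0611 and 0.0952), and by limma with pseudocounts of 1 and 0.1 (adjusted p = 0.122 and 0.155). YTHDC2, an RNA-binding helicase that mouse germ cells need for meiosis, rose in both exosome groups, by 0.85 in LPS_T and 0.63 in NOR_T against PBS. The call in NOR_T was lost by limma with both pseudocounts (adjusted p = 0.0515 and 0.0525). The other 7 tested genes of the list were called in no contrast. MEI1 and MND1, which act with SPO11 and DMC1 in mouse, had log2 differences of 0.51 and 0.77 in LPS_T against PBS. HOP2 was near the detection limit with at most 0.449 CPM, and CCNB1IP1 averaged below 1 CPM in all groups. TERB2, MARF1 and RMND1 lay between -0.44 and 0.25 in all 3 contrasts, and RMND1 is a mitochondrial protein in human despite its name. TERB2, which ties chromosome ends to the nuclear envelope in mouse, was called lower without PBS 1, at -0.45 in LPS_T and -0.66 in NOR_T against PBS.

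**Figure D2:**
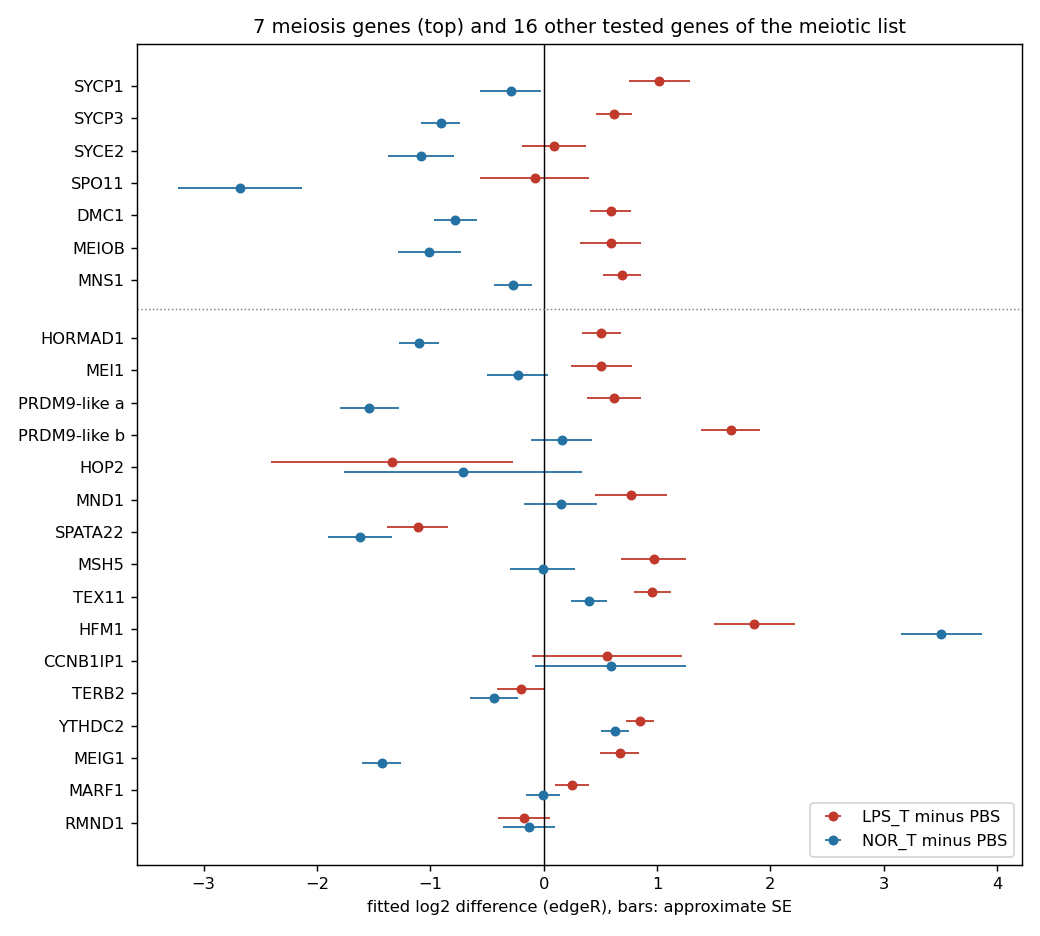
Fitted log2 differences from PBS (horizontal axis) of the 7 meiosis genes (above the dotted line) and of 16 other tested meiotic genes (below it), for LPS_T and for NOR_T. Points are edgeR estimates over 3 libraries a group and bars are the approximate SE. All 7 genes lie left of 0 in NOR_T, as do HORMAD1, the PRDM9-like gene a (scaffold40169), MEIG1 and SPATA22, the last at -1.62. SPATA22 lies left of 0 in LPS_T as well. Some uncalled genes also lie left of 0 in NOR_T, while HFM1 lies at 3.51 in NOR_T.

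Wider lists of chromosome handling were counted in the same fit. Of 32 tested genes in a list of general homologous recombination and mismatch repair, 6 rose and 2 fell in LPS_T against PBS (17.9% and 15.2% of all tested genes), and 3 rose and 0 fell in NOR_T against PBS (11.4% and 13.5%), with medians of 0.09 and 0.03. Without PBS 1 there were 5 higher and 2 lower in LPS_T and 0 calls in NOR_T, with medians of 0.02 and 0.06. The NOR_T count was also 0 without NOR_T 3, with library-size scaling and by limma with both pseudocounts, and it was 1 without NOR_T 2. The description search also took in NBR1 (next to BRCA1 gene 1), a selective autophagy receptor that is not a repair protein. The 70 kDa subunit of replication protein A, which coats single-stranded DNA in replication and repair, rose by 0.67 in LPS_T against PBS. Its difference in NOR_T against PBS was 0.4, and that call was lost without PBS 1, NOR_T 2 or NOR_T 3, with library-size scaling and by limma.

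Of 6 tested cohesin genes, whose ring complex holds sister chromatids, 1 rose and 0 fell in LPS_T against PBS (17.9% and 15.2% of all tested genes), and 0 rose and 1 fell in NOR_T against PBS (11.4% and 13.5%). With PBS 1 left out, 1 was higher and 1 lower in LPS_T, and 0 higher and 2 lower in NOR_T. The subunit SA-2 averaged 32.1 ± 1.74 CPM in LPS_T, 15.8 ± 2.34 CPM in NOR_T and 16.2 ± 3.56 CPM in PBS. It rose in LPS_T against PBS by 0.98 on the log2 scale (Benjamini-Hochberg adjusted p by edgeR = 0.000112). Nipped-B-like, the loader of the ring, had a log2 difference of -0.38 in NOR_T against PBS, and that call was lost without NOR_T 2, PBS 2 or PBS 3, with library-size scaling and by limma.

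Of 48 tested genes of mitotic division, 13 rose and 1 fell in LPS_T against PBS (17.9% and 15.2% of all tested genes), and 4 rose and 2 fell in NOR_T against PBS (11.4% and 13.5%), with medians of 0.33 and 0.07. Leaving out PBS 1 gave 14 higher and 1 lower in LPS_T, and 7 higher and 2 lower in NOR_T. Antigen KI-67, a proliferation marker, averaged 77.6 ± 6.99 CPM in LPS_T, 50.2 ± 1.17 CPM in NOR_T and 53.9 ± 1.47 CPM in PBS. It rose in LPS_T against PBS by 0.53 (Benjamini-Hochberg adjusted p by edgeR = 0.000115). Cyclin B, which drives entry into mitosis and meiosis, rose in LPS_T by 0.54 and had a difference of -0.25 in NOR_T against PBS. The summed level of the list was 1095 to 1143 CPM in LPS_T, 974.1 to 1030 CPM in NOR_T and 934.2 to 953.4 CPM in PBS, so NOR_T lay above PBS here and below it in the sum of the 7 genes.

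Among 15 tested genes of germline RNA control, 6 rose and 0 fell in LPS_T against PBS (17.9% and 15.2% of all tested genes), and 2 rose and 0 fell in NOR_T against PBS (11.4% and 13.5%), with medians of 0.33 and 0.16. Without PBS 1 there were 5 higher in LPS_T and 2 in NOR_T, with medians of 0.15 and 0.12. The germline helicase vasa averaged 124.8 ± 4.17 CPM in LPS_T, 111.6 ± 3.02 CPM in NOR_T and 99.4 ± 2.67 CPM in PBS, and it rose in LPS_T against PBS by 0.33. Boule, an RNA-binding protein needed for male meiosis in flies, rose in LPS_T against PBS by 1.28 (Benjamini-Hochberg adjusted p by edgeR = 0.00933) and had a difference of -0.23 in NOR_T. Piwi-like protein 1, which silences transposons in germ cells, rose in LPS_T by 0.51 and had a difference of 0.09 in NOR_T against PBS.

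Genes with descriptions that name sperm or spermatids had a median above 0 in LPS_T and below 0 in NOR_T against PBS. The description search also took in Zona pellucida sperm-binding protein 4, which is in the ovary list as well. That gene made up 40.4% of the summed level of the sperm list, so the list is not one of sperm proteins alone. Of 51 tested genes in a list of spermatid and sperm proteins, 25 rose and 6 fell in LPS_T against PBS (17.9% and 15.2% of all tested genes), and 1 rose and 27 fell in NOR_T against PBS (11.4% and 13.5%). The median log2 difference of that list was 0.62 in LPS_T against PBS, -0.78 in NOR_T against PBS and 1.43 in LPS_T against NOR_T. Without PBS 1 there were 22 higher and 4 lower in LPS_T, and 1 higher and 26 lower in NOR_T. Without the filter, 24 of 64 genes rose and 7 fell in LPS_T against PBS (2277 and 1858 of all 21617 genes). In NOR_T against PBS 2 rose and 28 fell (1548 and 1851 of all genes). Outer dense fiber protein 3, a part of the sperm tail, averaged 56.4 ± 2.89 CPM in LPS_T, 13 ± 2.09 CPM in NOR_T and 29.0 ± 4.45 CPM in PBS. A testis-specific kinase, TSSK3-like, averaged 20.8 ± 2.83 CPM in LPS_T, 3.38 ± 0.665 CPM in NOR_T and 15.7 ± 3.71 CPM in PBS, and it fell in NOR_T against PBS by 2.2 on the log2 scale.

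The marker list of the male gonad, 46 genes that are all in the sperm list as well, summed to 1535 to 1690 CPM in LPS_T, 535.5 to 571 CPM in NOR_T and 959.5 to 1147 CPM in PBS. A testis-specific alpha tubulin made up 67.3% of that sum, and tubulin copies can share reads. Without it the sums were 432.6 to 446.3 CPM in LPS_T, 257.3 to 265.7 CPM in NOR_T and 326.3 to 359.4 CPM in PBS, and the groups still did not overlap. Of its 36 tested genes, 13 rose and 6 fell in LPS_T against PBS (17.9% and 15.2% of all tested genes), and 1 rose and 16 fell in NOR_T against PBS (11.4% and 13.5%). Leaving out PBS 1 gave 10 higher and 4 lower in LPS_T, and 1 higher and 15 lower in NOR_T. Without the filter, 12 of the 46 rose and 7 fell in LPS_T against PBS (2277 and 1858 of all 21617 genes). In NOR_T against PBS 2 rose and 17 fell (1548 and 1851 of all genes). The sperm nuclear protein of the list, sperm-specific H1/protamine-like protein type 2, which packs DNA in ripe sperm, was at 0 CPM in all NOR_T libraries, at 0.0458 to 0.0473 CPM in LPS_T, and at 3.18, 0 and 0 CPM in PBS. Those LPS_T levels are below that of 1 fragment.

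The marker list of ciliated epithelium held 88 genes and no gene of the male gonad list, but it shared 15 genes with the list of spermatid and sperm proteins. It summed to 1256 to 1307 CPM in LPS_T, 510.2 to 532.4 CPM in NOR_T and 719.8 to 910.6 CPM in PBS, without overlap. Of its 71 tested genes, 42 rose and 2 fell in LPS_T against PBS (17.9% and 15.2% of all tested genes), and 3 rose and 33 fell in NOR_T against PBS (11.4% and 13.5%). In the fit without PBS 1, 39 were higher and 1 lower in LPS_T, and 3 higher and 36 lower in NOR_T. The medians of the 71 genes were 0.69 in LPS_T and -0.58 in NOR_T against PBS. Without the filter, 45 of the 88 rose and 0 fell in LPS_T against PBS (2277 and 1858 of all 21617 genes). In NOR_T against PBS 3 rose and 36 fell (1548 and 1851 of all genes). Axonemal dynein heavy chain 7, a motor of the cilium, averaged 31.3 ± 2.27 CPM in LPS_T, 4.73 ± 0.545 CPM in NOR_T and 18.1 ± 2.95 CPM in PBS. No count was recorded in any library of the group for 3 of the 88 genes in LPS_T, 7 in NOR_T and 7 in PBS, and none of these exceeded 0.727 CPM elsewhere. The part of the cilium and testis genes in the differences of the 7 meiosis genes was not tested.

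**Figure D3:**
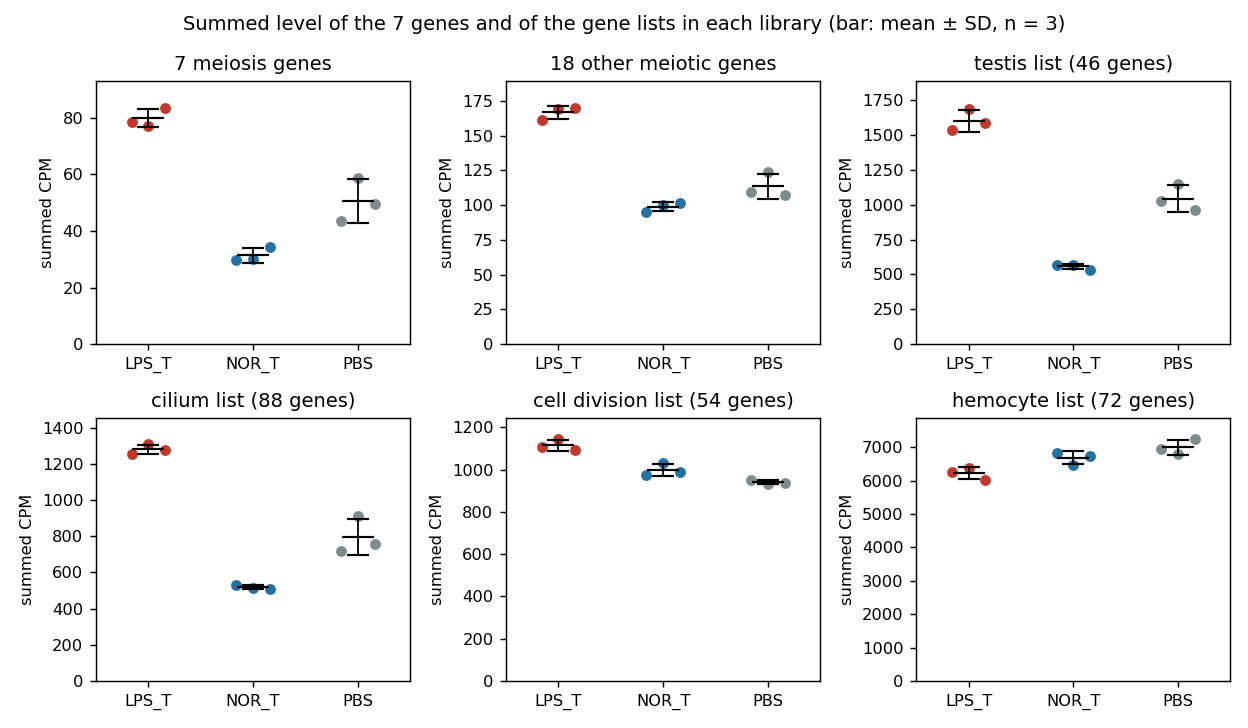
Summed level in CPM (vertical axes, from 0) of the 7 meiosis genes and of 5 gene lists in every library, by group. Points are libraries and bars are the mean ± SD (n = 3). The 7 genes, the testis list and the cilium list are highest in LPS_T and lowest in NOR_T, while the cell division list is lowest in PBS and the hemocyte list is highest there, with NOR_T and PBS sharing part of their range.

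The 8 named genes whose library profile was most like the mean profile of the 7 genes were looked up among 8733 tested genes, by the mean absolute difference of log2 CPM over the 9 libraries after each gene's own mean was taken off. The closest was coiled-coil domain-containing protein 166-like, at 0.107, where the median of all compared genes was 0.61. It averaged 8.48 ± 0.448 CPM in LPS_T, 2.72 ± 0.0273 CPM in NOR_T and 6.44 ± 0.572 CPM in PBS. Next came cilia- and flagella-associated protein 91-like and ciliary dynein intermediate chain 3, both at 0.151, then FAM47E-like at 0.157, PCSK5-like at 0.164, nucleoside diphosphate kinase 7-like at 0.166, CCDC92-like at 0.17 and sperm-associated antigen 17-like at 0.173. By the search patterns, 2 of the 8 were in the cilium, sperm or testis lists. The cilium pattern missed ciliary dynein intermediate chain 3, although its description names the cilium. The 7 genes themselves lay at 0.142 (DMC1) to 0.567 (SPO11) from their own mean. The 8 genes were picked for closeness out of 8733 and the 7 were not, so their distances are not compared. The list gives likeness over 9 libraries only.

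**Figure D4:**
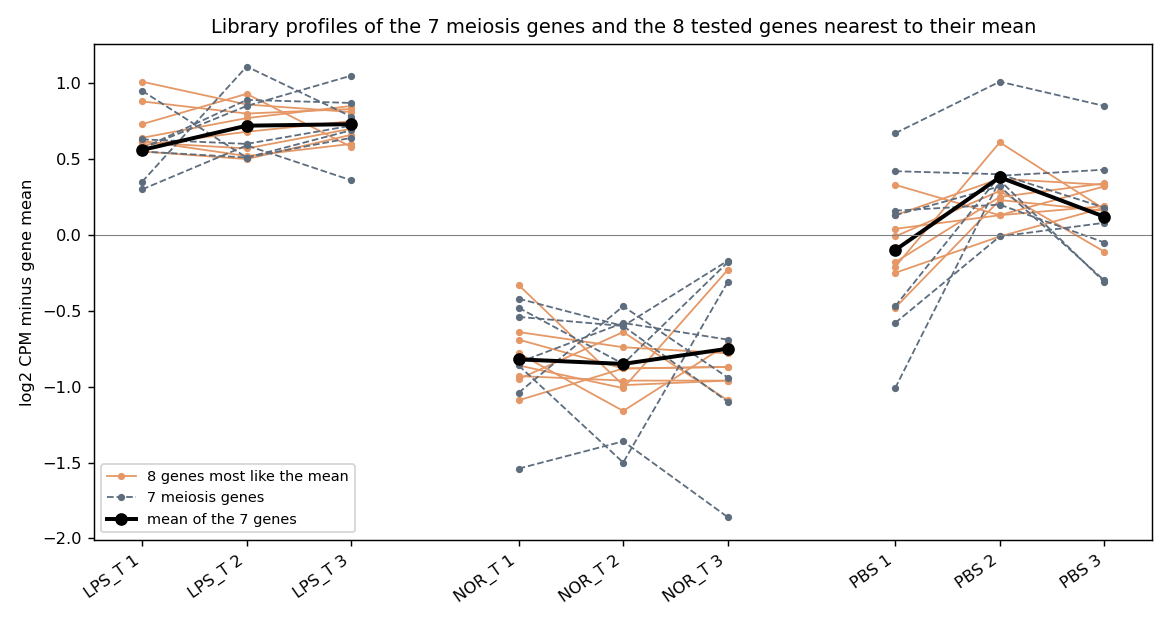
Level of each gene minus its own mean over the 9 libraries (vertical axis, log2 CPM) in every library, for the 7 meiosis genes (dashed), their mean (black) and the 8 tested genes with the nearest profile. Lines join libraries of a group only to guide the eye. The mean of the 7 genes lies between 0.56 and 0.73 in LPS_T, between -0.85 and -0.75 in NOR_T and between -0.1 and 0.38 in PBS.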

How the data were processed

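Poly(A) RNA of scallop hemocytes was sequenced in 9 paired-end libraries, without strand, per the labels' protocols. The submitters' processing notes name HISAT, StringTie and edgeR without versions. For the genome build and for the counter the entry is: not given in the sources used here. Each gene has an estimated count and an FPKM for every library in the deposited table, per the file headers, both made by the authors. The values are called estimated counts because low ones are spaced 3.63 to 3.78 apart, and they were rounded.

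The 7 genes and all gene lists were chosen with earlier results of these data known. Genes that reached an FPKM of 1 in 3 or more libraries entered edgeR 4.0.16 (R 4.3.3): TMM scaling, quasi-likelihood test, 1 mean per title group over all 9 libraries, and a Benjamini-Hochberg adjusted p under 0.05 over all tested genes. The SE is approximate: the size of the log2 difference over the root of its F value. SPO11 ratios are of counts divided by the counts per fragment. The lists were matched to descriptions and hold no copy of the 7 genes. A gene can pass the filter only through the group where it is high. Outside the meiotic list such genes were not set apart, so the list counts include them. An egg protein list was left out because its search pattern also took in words such as binding. The rule for named genes takes all called genes of the meiotic list, per other list and contrast the 2 called genes each way with the smallest adjusted p, the 8 named genes with the nearest profile (prior count 2), and the nearest tested neighbours. The text gives some of these. The uncalled genes of the meiotic list and the sperm nuclear protein fall outside the rule.

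Alternatives were library-size and relative log expression scaling, DESeq2 1.42.0, limma 3.58.1 on log2(FPKM + 1) and log2(FPKM + 0.1), other filters, a replicate block and each library left out. Library weights and counts divided by the counts per fragment were added after the data were seen. The scripts were tested on simulated data. Libraries of a group differed by 2.21 to 3.08 times the sampling noise, so none was a duplicate. Figures were drawn with matplotlib 3.10.9. No sequences were used here.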

Additional observations from a re-analysis of the deposited data

How the results depend on the processing

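Of 399 values of the 7 genes under 19 alternatives, 0 changed the sign of a difference larger than the spread between libraries, and 6 moved by more than that spread, all 6 in limma on FPKM. They were NOR_T against PBS for SYCE2 (-0.75), DMC1 (-0.51) and SPO11 (-0.84 and -2.12), and LPS_T against NOR_T for SPO11 (0.87 and 2.19). Of 4116 alternative values of 219 tested results for named genes, 3887 kept their side of the threshold, 192 lost their call and 37 gained one. Of the results called in the main or the alternative fit, 0 reversed. Sign changes of results called in neither fit were not counted, and such values are among the 3887. The count of called genes was 3855 for LPS_T against PBS (2467 and 2172 by limma with pseudocounts 1 and 0.1, and 3019 to 3864 with a library left out). It was 2903 for NOR_T against PBS (1343 and 1212 by limma, 2213 to 2792) and 2509 for LPS_T against NOR_T (1413 and 1211 by limma, 1856 to 3088). The cause was not tested. The meiotic list had 8, 6 and 7 calls in these contrasts, 5 to 9, 5 to 7 and 4 to 7 with a library left out, and 4 for LPS_T against NOR_T by limma with pseudocount 0.1. With library-size scaling the share of higher calls was 69.4% in place of 54.1% for LPS_T against PBS and 71.4% in place of 58.6% for LPS_T against NOR_T. By limma with pseudocounts 1 and 0.1 it was 76.3% and 75.6%, and 74.8% and 75.0%, and for NOR_T against PBS 57.9% and 56.6% in place of 45.8%. The median of all genes shifted to 0.13 with library-size scaling and 0.17 and 0.21 by limma for LPS_T against PBS, and to 0.12 and 0.16 by limma for NOR_T against PBS. Libraries with the same number did not deviate together (correlations -0.025 to 0.08). With the replicate block the counts were 3755, 2793 and 2423 genes, and 8, 6 and 8 for the meiotic list. Where a library was left out, the single spread estimate of all groups was used. Depth limits SPO11, MSH4 and HOP2.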

Other observations

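The marker lists of other tissues did not share the order of the 7 meiosis genes. Of 38 tested muscle genes, 9 were higher and 2 lower in LPS_T against PBS (17.9% and 15.2% of all tested genes), and 9 higher and 2 lower in NOR_T against PBS (11.4% and 13.5%). Their summed level was 12318 to 13313 CPM in LPS_T, 12991 to 13693 CPM in NOR_T and 11751 to 12575 CPM in PBS. The digestive gland list summed to 745.4 to 753.4 CPM in LPS_T, 1045 to 1080 CPM in NOR_T and 1613 to 1798 CPM in PBS, and neurotrypsin-like made up 71.2% of its sum. Without that gene LPS_T (273.4 to 281.4 CPM) and NOR_T (279.4 to 295.3 CPM) overlapped, both below PBS (430 to 476.1 CPM). Of its 17 tested genes, 4 were higher and 7 lower in LPS_T against PBS, and 1 higher and 6 lower in NOR_T against PBS. Without PBS 1 there were 2 higher and 7 lower in LPS_T, and 0 higher and 5 lower in NOR_T. The search pattern of the digestive gland list also took in names such as tubulin polyglutamylase, inter-alpha-trypsin inhibitor and neurotrypsin. It is therefore not a list of digestive enzymes alone. The nerve list summed to 4523 to 4927 CPM in LPS_T, 3182 to 3386 CPM in NOR_T and 2993 to 3158 CPM in PBS, with 47.1% from a neuropeptide S receptor-like gene. Without that gene the order changed, with 1574 to 1702 CPM in LPS_T, 2034 to 2137 CPM in NOR_T and 2067 to 2239 CPM in PBS. Of its 22 tested genes 3 were higher and 8 lower in LPS_T against PBS, and 4 higher and 5 lower in NOR_T against PBS. The ovary list of 6 genes had 3 tested genes, of which vitellogenin was the only gene higher in LPS_T and in NOR_T against PBS. Of 28 tested hemocyte genes, 7 were higher and 3 lower in LPS_T against PBS, and 5 higher and 2 lower in NOR_T against PBS, and the shares of all tested genes given above apply to each of these lists.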
